A study of Mus musculus with 15 samples.

Results

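Oxidative phosphorylation runs on proteins encoded in both genomes of the cell, and the genes described here are its subunits together with the assembly factors that share their names. They were taken by symbol: protein-coding genes of the count table whose mouse symbol starts with Nduf, Sdh, Uqcr, Cox4 to Cox8, Atp5, mt-Nd, mt-Co, mt-Cyt or mt-Atp, with pseudogene symbols ending in -ps dropped. This gave 110 of the 49585 genes in the table, 97 of them in the nucleus and 13 in the mitochondrial genome. The rule goes by symbol alone and uses no measured value, but it was chosen with earlier results of these data known. Not all are subunits. The nuclear genes comprise 83 subunits, 8 assembly factors of complex I, 4 assembly factors of complex II, Cox7a2l, which joins complexes into supercomplexes, and Atp5s, a factor associated with the ATP synthase. Of the 97 nuclear genes 93 had enough counts to be tested, and of the 13 mitochondrial genes 7 did.

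RNA sequencing covered 15 libraries of wild-type E14 mouse embryonic stem cells, 3 for each of 5 media, all grown in Matrigel, a gel of basement membrane proteins. Before embedding at 2000 cells per µl, per the labels, every culture was kept with 0.4 µM PD0325901, an inhibitor of the kinase MEK, 3 µM CHIR99021, an inhibitor of the kinase GSK3, and 4 ng/ml of the cytokine Lif. The gel was then covered with N2B27, a serum-free medium, which carried 2iLif (the maintenance inhibitors with Lif), FGF2/Activin (2 growth factors, also written FAK in the labels), PD032, Aurka inh (an inhibitor of Aurora kinase A), or PD032+ Aurka inh, called the combination below. PD032 is not spelled out and the Aurora compound is unnamed in the labels, treatment doses and times are not stated there, and no group had N2B27 alone. The labels do not say whether the 3 libraries of a group came from separate cultures, so the spread behind the p-values may be technical.

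In the inner mitochondrial membrane, complexes I and II pass electrons from NADH and succinate to coenzyme Q, complex III passes them to cytochrome c, and complex IV passes them to oxygen. Complexes I, III and IV pump protons in doing so, and the ATP synthase, complex V, makes ATP from the proton gradient. The mitochondrial genome encodes core subunits of complexes I, III, IV and V, whereas every subunit of complex II is nuclear. Naive embryonic stem cells are known to use both respiration and glycolysis, and cells closer to the epiblast are known to rely more on glycolysis.

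Total counts per library lay between 15199507 and 24202544. Levels are given as CPM, counts scaled to a fixed library total after adjustment by TMM factors. Fold changes are on the log2 scale, first group over second, and a gene passed at an adjusted p under 0.05 in edgeR's quasi-likelihood test with Benjamini-Hochberg adjustment over all 15223 genes tested. The median log2 fold change of all tested genes lay between -0.01 and 0.02 in the 7 comparisons. Markers of pluripotent cells were present in every library, with a summed level of 1333 to 2975 CPM over 6 genes, lowest in PD032 and highest in 2iLif. Marker lists of 5 other cell types had summed levels under 108 CPM in every library. Neuroectoderm markers ran from 8.71 to 11.1 CPM in 2iLif and from 86.6 to 107 CPM in PD032, and trophoblast markers from 6.75 to 8.43 CPM in FGF2/Activin and from 55.6 to 57.1 CPM in 2iLif. Their part in the results below was not tested, and in bulk RNA fewer cells of a type cannot be told apart from less RNA per cell.

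Reading the mitochondrial genome genes requires a view of what the table counts. Of the 13 genes 5 (mt-Atp6, mt-Atp8, mt-Co2, mt-Nd3 and mt-Nd4l) were listed at 0 counts in all 15 libraries, and mt-Co3 had 12 counts in all. The other 7 had between 173729 counts (mt-Nd6) and 1889134 counts (mt-Co1) over the 15 libraries. All of these genes encode essential subunits, and all but mt-Nd6, which lies on the opposite strand, are cut from long transcripts of the same strand. Values were therefore compared with their sequence. Chromosome 1 carries a copy of part of the mitochondrial genome on its minus strand, annotated as 7 pseudogenes from position 24611535 to 24616197 of GRCm38. Of the windows of 50 bases in mt-Co2, mt-Co3, mt-Atp6, mt-Nd4l and mt-Nd3, between 98% and 100% also occur in transcripts of other genes, chiefly these copies. For mt-Nd4 the share was 62.2%, for mt-Co1 51.1%, and for the other 5 counted genes under 10%. The exception was mt-Atp8, at 0 counts with no window shared with an annotated transcript. It overlaps mt-Atp6 by 43 bases, fewer than a window holds, and only annotated transcripts were searched. On chromosome 1 the bases between Gm10925 (mt-Atp6, ending at 24614651) and Gm28661 (mt-Co2, starting at 24614885) are not in an annotated copy. In the mitochondrial genome mt-Atp8 lies between mt-Co2 and mt-Atp6. A copy of mt-Atp8 could therefore lie in these bases, which were not searched. How the counting treated reads with several matches or in overlapping genes is not given in the sources used here, and its part in these zeros was not tested.

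The 60 bases below, from the middle of mt-Nd3 (a core subunit of complex I) and its chromosome 1 copy Gm28438, are shown because no base differs, so a read within them matches both equally. Sequences are from GENCODE M21 transcripts on GRCm38, mt-Nd3 from chrM:9609-9668, plus strand and Gm28438 from chr1:24612910-24612969, minus strand.
mt-Nd3: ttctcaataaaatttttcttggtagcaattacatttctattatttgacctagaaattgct
Gm28438: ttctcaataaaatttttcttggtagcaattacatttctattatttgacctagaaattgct
In this pair mt-Nd3 was listed at 0 in every library and Gm28438 at 187 to 271. The chromosome 1 copies of the other members near 0 had few counts themselves: over the 15 libraries Gm28661 (mt-Co2) had 32, Gm28437 (mt-Co3) 25, Gm10925 (mt-Atp6) 43 and Gm10222 (mt-Nd4l) 85. A copy of mt-Co1, the catalytic subunit of complex IV, is less exact. Gm13340 on chromosome 2 matched mt-Co1 at 1508 of 1545 bases. The next 60 bases come from chrM:5628-5687, plus strand, and chr2:22589288-22589347, minus strand, with the differing base in capitals.
mt-Co1: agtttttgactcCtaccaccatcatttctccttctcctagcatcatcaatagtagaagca
Gm13340: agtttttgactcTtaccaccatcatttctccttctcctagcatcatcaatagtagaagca
mt-Co1 itself had 93963 to 162605 counts per library. Gm13340 had 116 to 193 counts in the 2iLif and FGF2/Activin libraries and 20 to 41 in the libraries of the 3 inhibitor groups. Library names follow 1 style in 2iLif and FGF2/Activin and a different style in the inhibitor groups, per the labels. So comparisons of an inhibitor group with 2iLif cross the styles, and a difference between styles cannot be told apart from the treatment in them.

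**Figure D1:**
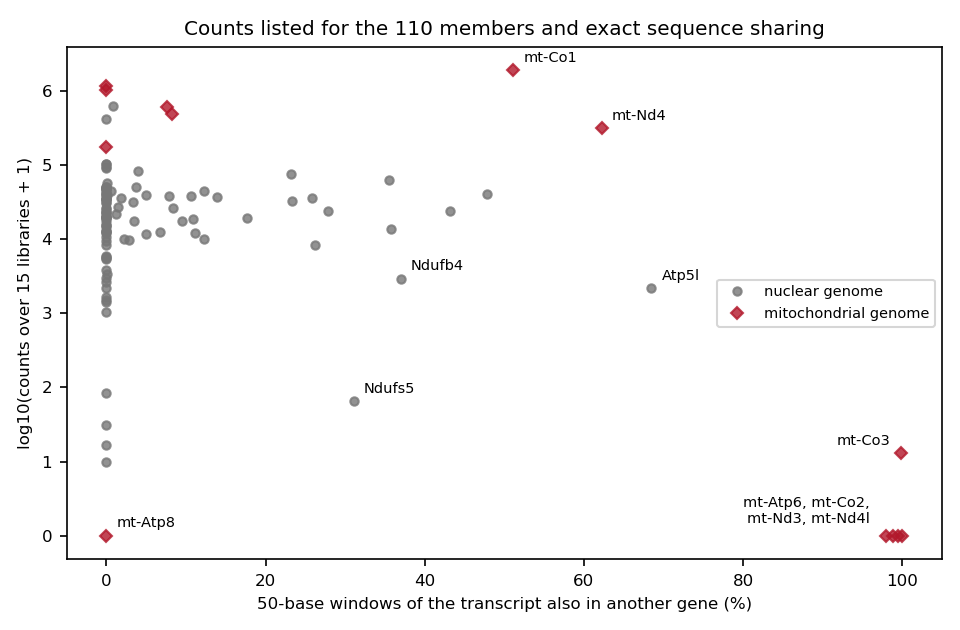
Counts over the 15 libraries for each of the 110 genes (log10 of counts plus 1, vertical axis) against the share of 50-base windows of its longest protein-coding transcript that also occur in another gene (%, horizontal axis). The mitochondrial genes with 98% or more of their windows shared all lie at 12 counts or fewer. mt-Atp8 lies at 0 with no window shared with an annotated transcript, and Ndufs5 is the nuclear gene that stands low at 31.1%.

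Among nuclear members 58 of 97 shared no 50-base window with another gene and 78 shared under 10%. The nuclear subunit that stood out was Ndufs5, an accessory subunit of complex I at chr4:123712710-123718202. It had 65 counts over the 15 libraries, 0 to 9 each, while BC002163, a processed pseudogene on chromosome 16 that matches its transcript at 317 of 319 aligned bases, had 256 to 457 counts in each library. Atp5l, a membrane subunit of the ATP synthase, shared 68.5% of its windows with transcripts of 13 other genes and had 2165 counts in all. Ndufb4 shared 37% and had 2914. Counts of these genes are therefore uncertain, and Ndufs5 was not tested. Cox4i2, Cox8b and Cox8c, tissue-restricted forms of complex IV subunits, were not tested either, at no more than 0.257 CPM in any library.

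Summed over all 97 nuclear members, the level was highest on average in 2iLif and lowest in FGF2/Activin. The 3 libraries of 2iLif had 13972, 14297 and 14883 CPM and those of FGF2/Activin 11386, 11337 and 11437 CPM. PD032 had 10983, 12886 and 11327 CPM, Aurka inh 12229, 14438 and 12986 CPM and the combination 12779, 14546 and 13479.8 CPM. In each of the 3 inhibitor groups replicate 2 was the highest, so that PD032 replicate 2 lay above replicate 1 of Aurka inh and of the combination. The 3 FGF2/Activin libraries lay between 11337 and 11437 CPM.

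The 13 mitochondrial members were summed in the same way. Their summed level was 18125, 18712 and 19940.4 CPM in 2iLif and 21583, 22248 and 21574 CPM in FGF2/Activin, where every library was above every 2iLif library. PD032 had 19342, 19609 and 18066 CPM, which overlapped 2iLif. Aurka inh spread most, at 21173, 26629 and 17819 CPM, and the combination had 22298, 22026 and 18408 CPM. As a share of all counts the mitochondrial members took 1.77% to 2.64% of a library.

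**Figure D2:**
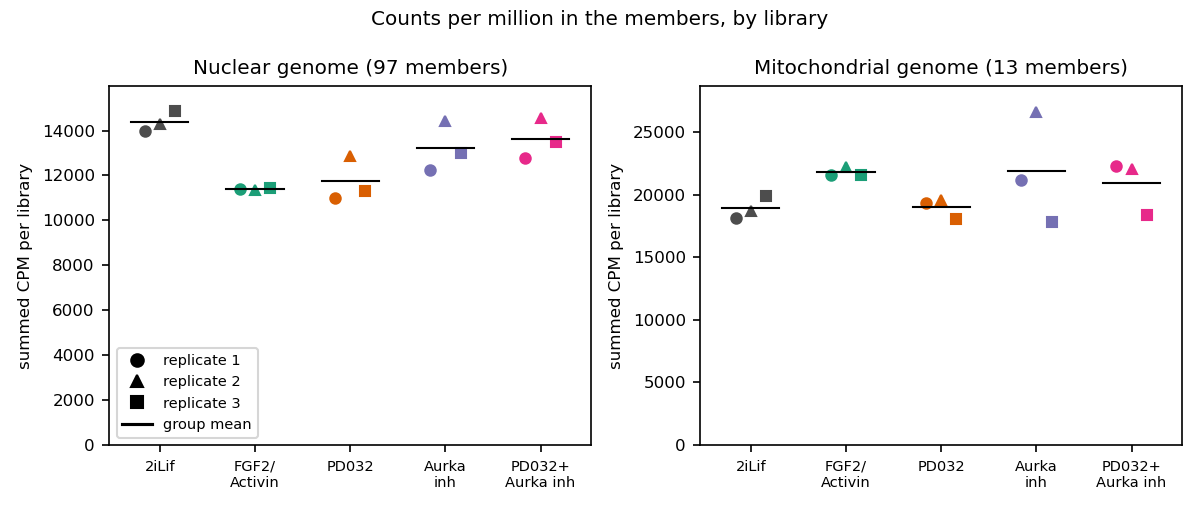
Summed CPM of the 97 nuclear members (left) and the 13 mitochondrial members (right), 1 point per library, with marker shape for the replicate number and a line for the group mean. Nuclear sums fall from 13972 to 14883 in 2iLif to 11337 to 11437 in FGF2/Activin, whereas mitochondrial sums of FGF2/Activin lie above all 3 of 2iLif.

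FGF2/Activin against 2iLif compares growth factor medium with the maintenance inhibitors, within 1 naming style. Nuclear members were mostly lower and no tested mitochondrial member was. Of 93 nuclear members 56 fell (60.2%), 6 rose and 31 did not pass, where 32.6% of all tested genes fell and 33.3% rose (65.9% in either direction). Their median log2 fold change was -0.31, and in 79 of the 93 the libraries of both groups did not overlap, which was the case in 75.7% of all tested genes. Falls occurred in each complex: 21 of 35 complex I subunits, all 4 of complex II, 4 of 8 of complex III, 9 of 16 of complex IV and 13 of 16 of the ATP synthase fell. The subunits with a call in the other direction numbered 1 of 79. Without 2iLif replicate 1, 3 nuclear members rose instead of 6, where 29.4% of all genes rose.

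Complex II, succinate dehydrogenase, which also belongs to the citric acid cycle, fell in all 4 subunits. Sdhb, its iron-sulfur subunit at chr4:140961203-140979193, had 162, 169 and 179.9 CPM in 2iLif and 86.8, 87.2 and 85.7 CPM in FGF2/Activin (log2 fold change -0.98, SE 0.08, adjusted p = 1.4e-08). Sdha, the flavin-bearing catalytic subunit at chr13:74322254-74350280, had 403, 407 and 415 CPM against 279, 289 and 288 CPM (log2 fold change -0.52, SE 0.04, adjusted p = 1.0e-08). For both genes every FGF2/Activin library was below every 2iLif library. The membrane anchors Sdhc and Sdhd had log2 fold changes of -0.50 and -0.14, and the call on Sdhd was lost in 3 of 13 alternatives (highest adjusted p = 0.064). Of its 4 assembly factors 2 rose and 1 fell: Sdhaf1 and Sdhaf3, which help to mature the iron-sulfur subunit, rose by 0.55 and 0.69 on the log2 scale, and Sdhaf4, which acts on the flavin-bearing subunit, had a log2 fold change of -0.50.

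In complex I, the entry point for NADH, the nuclear core subunits that fell most were Ndufv1, which binds the FMN cofactor, and Ndufv2, a neighbouring iron-sulfur subunit. Ndufv1 had 210.4, 226 and 226 CPM in 2iLif and 157, 156 and 156 CPM in FGF2/Activin (log2 fold change -0.50, SE 0.07, adjusted p = 4.8e-06). Ndufs1, the largest iron-sulfur subunit of the same arm, had 164, 163 and 171 against 159.6, 168 and 159.6 CPM and did not pass (adjusted p = 0.6). Accessory subunits form the shell around the core. Those with the largest falls were Ndufb4, at 13.2 ± 1.01 against 6.44 ± 0.289 CPM (SD, n = 3), a gene with 37% of its windows shared, Ndufa3 (-0.67 on the log2 scale) and Ndufb5 (-0.65), and 17 of 28 fell in all.

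Of 8 assembly factors of complex I, 2 rose, 3 fell and 3 did not pass, where 33.3% of all tested genes rose and 32.6% fell. Ndufaf5, which modifies an arginine of Ndufs7 during assembly, at chr2:140170649-140203689, had the largest fall of any called member. It had 36.3, 34.2 and 32.8 CPM in 2iLif and 15.1, 14.9 and 15.7 CPM in FGF2/Activin (log2 fold change -1.18, SE 0.11, adjusted p = 7.0e-08). Ndufaf7, a methyltransferase, rose from 31.1 ± 1.9 to 44.3 ± 0.704 CPM (log2 fold change 0.51, SE 0.10, adjusted p = 3.4e-04). Ndufaf4 and Ndufaf3 are partners in an early step and moved apart, Ndufaf4 by -0.44 and Ndufaf3 by 0.30 on the log2 scale, and the latter did not pass in 1 of 13 alternatives (adjusted p = 0.064).

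In complex III the pair of core proteins fell together. Uqcrc1 had 409, 419 and 457 CPM in 2iLif and 294, 284 and 281 CPM in FGF2/Activin (log2 fold change -0.58, SE 0.05, adjusted p = 8.0e-08), and Uqcrc2 had a log2 fold change of -0.60 (SE 0.05). Uqcrfs1, the Rieske iron-sulfur protein that carries electrons, had 129, 128 and 131 CPM against 133, 129 and 129.9 CPM and did not pass (adjusted p = 0.85). In complex IV, Cox5a, which joins the core early, had 120.3, 131 and 144 CPM against 81.8, 81.7 and 77.3 CPM (log2 fold change -0.72, SE 0.09, adjusted p = 3.3e-06). Cox4i1, the ubiquitous form of subunit 4, had a log2 fold change of -0.41.

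Of 16 ATP synthase subunits 13 fell, with a median log2 fold change of -0.38 over the 16. Atp5g3, 1 of 3 genes for the rotating c ring, had 408, 422 and 433 CPM against 304, 300.3 and 306 CPM (log2 fold change -0.47, SE 0.09, adjusted p = 2.3e-04), with no overlap. Atp5o, the stalk protein OSCP, which shares 35.5% of its windows with other genes, had a log2 fold change of -0.57 and Atp5b, the catalytic beta subunit, one of -0.30 (SE 0.05). Atp5e, the epsilon subunit, had 79.9, 83.5 and 87.3 CPM against 85.7, 76.7 and 81.8 CPM and did not pass.

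Against these falls, each of the 7 tested mitochondrial members had a higher level in every FGF2/Activin library than in any 2iLif library, with a median log2 fold change of 0.19, but only 2 of 7 passed. Among all tested genes 37.8% had every FGF2/Activin library above every 2iLif library and 33.3% passed as higher. The members that passed were mt-Nd4, a proton-pumping subunit of complex I, at 989.9, 1048 and 1148 against 1398, 1417 and 1354 CPM (log2 fold change 0.39, SE 0.13, adjusted p = 0.017), and mt-Cytb, the core of complex III, at 3146, 3332 and 3544 against 4206, 4261 and 4111 CPM (log2 fold change 0.33, SE 0.10, adjusted p = 0.012). With only the libraries of these 2 groups in the fit all 7 passed, where 38.6% of all genes in that fit did so as higher, and without 2iLif replicate 1 or without 2iLif replicate 2 none did. The least change was in mt-Nd1, at 3702, 3869.8 and 4063 against 4211, 4272 and 4093 CPM (adjusted p = 0.29). Together the mitochondrial ribosomal RNAs, which are no members, took 0.135% to 0.143% of counts in FGF2/Activin and 0.163% to 0.168% in 2iLif. They moved apart: mt-Rnr1 had 5873 to 5989 counts in FGF2/Activin libraries and 3951 to 4788 in 2iLif libraries, and mt-Rnr2 15232 to 16373 against 21461 to 21861. Total counts were 15234243 to 15703321 and 15199507 to 15818758. All are counts in libraries of poly(A) RNA.

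**Figure D3:**
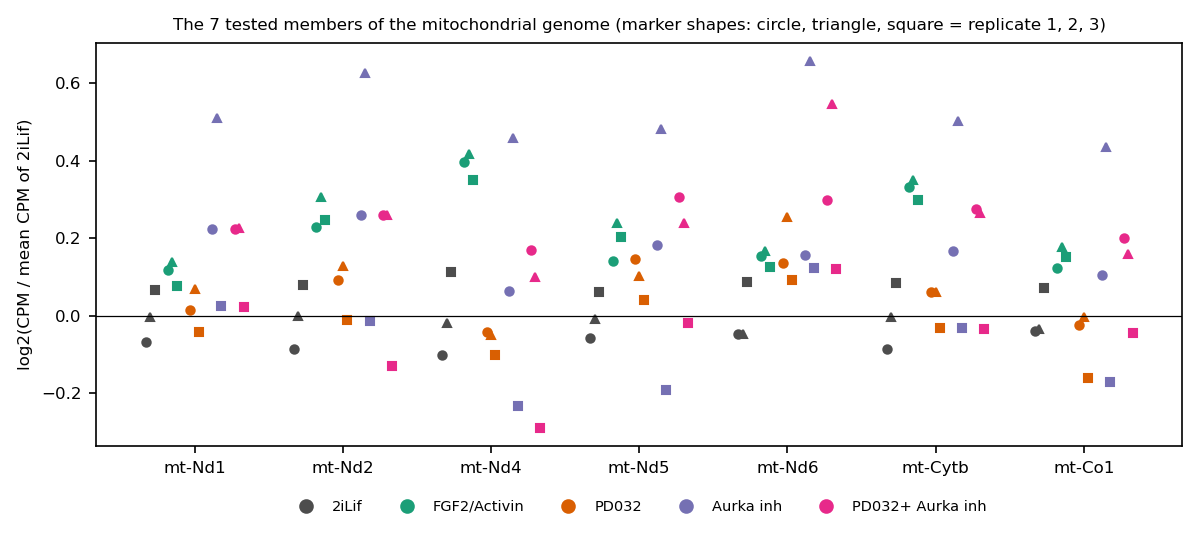
Level of each tested mitochondrial member in each library as log2 of CPM over the mean CPM of 2iLif (vertical axis), coloured by group, with circles, triangles and squares for replicates 1, 2 and 3. FGF2/Activin points lie above every 2iLif point in all 7 genes, and Aurka inh spreads widely, with replicate 2 the highest in each gene.

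Among the inhibitor groups, more nuclear members were lower than higher in PD032, against both Aurka inh and the combination. PD032+ Aurka inh against PD032 asks what adding the Aurora inhibitor to PD032 changed. Of 93 nuclear members 33 rose (35.5%), 3 fell and 57 did not pass, where 20% of all tested genes rose and 23.8% fell (43.7% in either direction), and the median log2 fold change was 0.19. PD032 against Aurka inh gave 5 higher, 31 lower (33.3%) and 57 not passed, where 25.8% of all genes were higher and 19.7% lower (45.5% in either direction), with a median of -0.16. PD032+ Aurka inh against Aurka inh gave 4 higher and 2 lower, where 18.6% and 16.3% of all genes were (34.9% in either direction), with a median of 0.01. Comparisons that share a group are not independent, and their values stand side by side here.

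These counts changed with the model and with the libraries in it. Libraries with the same number in these 3 groups deviated together, so the 9 inhibitor libraries were also fitted on their own with the replicate number as a block. In that blocked fit 64 nuclear members were higher in the combination than in PD032, where 28% of all genes were, and 60 were lower in PD032 than in Aurka inh, where 27.2% were. The combination against Aurka inh had 19 higher and 12 lower, shares of 93 below those of all genes, 23.9% and 24.5%. With replicate 2 of all 3 groups left out, an alternative added after the data were seen, 55 were higher in the combination than in PD032 (24.6% of all genes) and 46 lower in PD032 than in Aurka inh (22.7% of all genes). Leaving out single libraries gave 17 to 52 and 18 to 49 for these counts. The first was 17 without PD032 replicate 1, PD032 replicate 3 or replicate 2 of the combination. Shares of all genes higher in these fits were 16.1%, 15.7% and 18.3%. It was 52 without PD032 replicate 2, where 21.1% of all genes were higher. The second was 18 or 19 without PD032 replicate 1, PD032 replicate 3 or Aurka inh replicate 2. Shares of all genes lower in these fits were 15.8%, 15.8% and 17.6%. It was 49 without PD032 replicate 2, where 20.4% of all genes were lower. So the lowest counts, as shares of the members, lay close to the shares of all genes. The direction of the majority was the same in each of these fits. The small counts moved too: members higher in PD032 than in Aurka inh numbered 3 without replicate 1 or 2 of PD032 or replicate 1 or 3 of Aurka inh, and 8 without Aurka inh replicate 2. Shares of all genes higher were 22.6% to 25.8% in the former fits and 24.1% in the latter. For the combination against Aurka inh, 13 were higher without Aurka inh replicate 2, and lower members numbered 0 without the combination's replicate 3, 1 without its replicate 1 or without Aurka inh replicate 2, and 4 without Aurka inh replicate 1. In these fits 18.4% of all genes were higher, and 13.4%, 14.8%, 16.7% and 14.7% lower, in this order.

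A member whose calls in both comparisons with PD032 held in every alternative run was Ndufaf4, the assembly factor of the peripheral arm of complex I, at chr4:24898083-24905001. It had 26.4, 33.1 and 28 CPM in PD032, 59.7, 70.4 and 62.8 CPM in Aurka inh and 50.5, 57.6 and 52.5 CPM in the combination, with 51.8, 49.5 and 48 CPM in 2iLif. The 3 inhibitor groups did not overlap. The combination exceeded PD032 (log2 fold change 0.88, SE 0.08, adjusted p = 4.2e-07), and PD032 was below Aurka inh (log2 fold change -1.14, SE 0.08, adjusted p = 2.0e-08). The difference between the combination and Aurka inh was smaller (log2 fold change -0.26, SE 0.08, adjusted p = 0.02) and was lost in 3 of 14 alternatives (highest adjusted p = 0.081). Ndufaf3, its partner, had the opposite order, with 23.1, 26.5 and 23.3 CPM in PD032 and 20.2, 19.3 and 19.4 CPM in the combination (log2 fold change -0.31, SE 0.08, adjusted p = 0.0069).

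In complex II, PD032 against Aurka inh had calls in both directions. Sdha had 275, 295 and 284 CPM in PD032, 316, 322 and 321 CPM in Aurka inh and 365, 377 and 382 CPM in the combination, with no overlap between any pair of these groups. It was higher in the combination than in PD032 (log2 fold change 0.40, SE 0.04, adjusted p = 7.4e-07) and than in Aurka inh (log2 fold change 0.23, SE 0.04, adjusted p = 3.5e-04). Sdhb had 127, 149.7 and 128 CPM in PD032, 97.8, 118 and 112 CPM in Aurka inh and 117, 135 and 125 CPM in the combination. It did not pass between the combination and PD032 (edgeR adjusted p = 0.29), but did with the replicate number as a block, as lower in the combination (adjusted p = 0.021). In PD032 against Aurka inh Sdha was lower (-0.17 on the log2 scale), while Sdhb was higher (0.30) and missed the threshold in 1 of 14 alternatives (adjusted p = 0.055).

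ATP synthase and complex III held many of the calls between the combination and PD032, with 10 of 16 and 5 of 8 higher. Of the subunits of complex I 8 of 35 were higher (22.9%), close to the 20% of all tested genes. Whether these shares differ was not tested. Atp5g3 had 275, 338 and 288 CPM in PD032, 379.7, 493 and 437 CPM in Aurka inh and 374, 452 and 428 CPM in the combination (log2 fold change 0.48, SE 0.09, adjusted p = 4.1e-04 for the combination against PD032). Every PD032 library was below every library of the other inhibitor groups. Uqcrc1 had 254, 268 and 266 CPM in PD032 and 335, 345 and 341 CPM in the combination (log2 fold change 0.37, SE 0.05, adjusted p = 3.1e-05), and in complex I Ndufa9, an accessory subunit near the coenzyme Q site, had a log2 fold change of 0.27 (SE 0.06).

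None of the 7 tested mitochondrial members passed between the combination and PD032 or between the combination and Aurka inh in edgeR, and none did at an unadjusted p under 0.05, in DESeq2 or in limma on the deposited log2 values. With the replicate number as a block 3 were higher in the combination than in PD032, where 28% of all genes were. In that fit 1 was lower in the combination than in Aurka inh, where 24.5% of all genes were. PD032 against Aurka inh had 1 lower, where 19.7% of all genes were, and 5 with the block, where 27.2% of all genes were. The former was mt-Nd1, at 3921, 4066 and 3769.5 against 4532, 5525 and 3948 CPM (log2 fold change -0.25, SE 0.09, adjusted p = 0.031). That call was lost without PD032 replicate 1, without PD032 replicate 3 and without Aurka inh replicate 2. Without Aurka inh replicate 3 the count was 6, where 16.6% of all genes were lower. Aurka inh replicate 2 was the highest library of the series for all 7 genes.

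**Figure D4:**
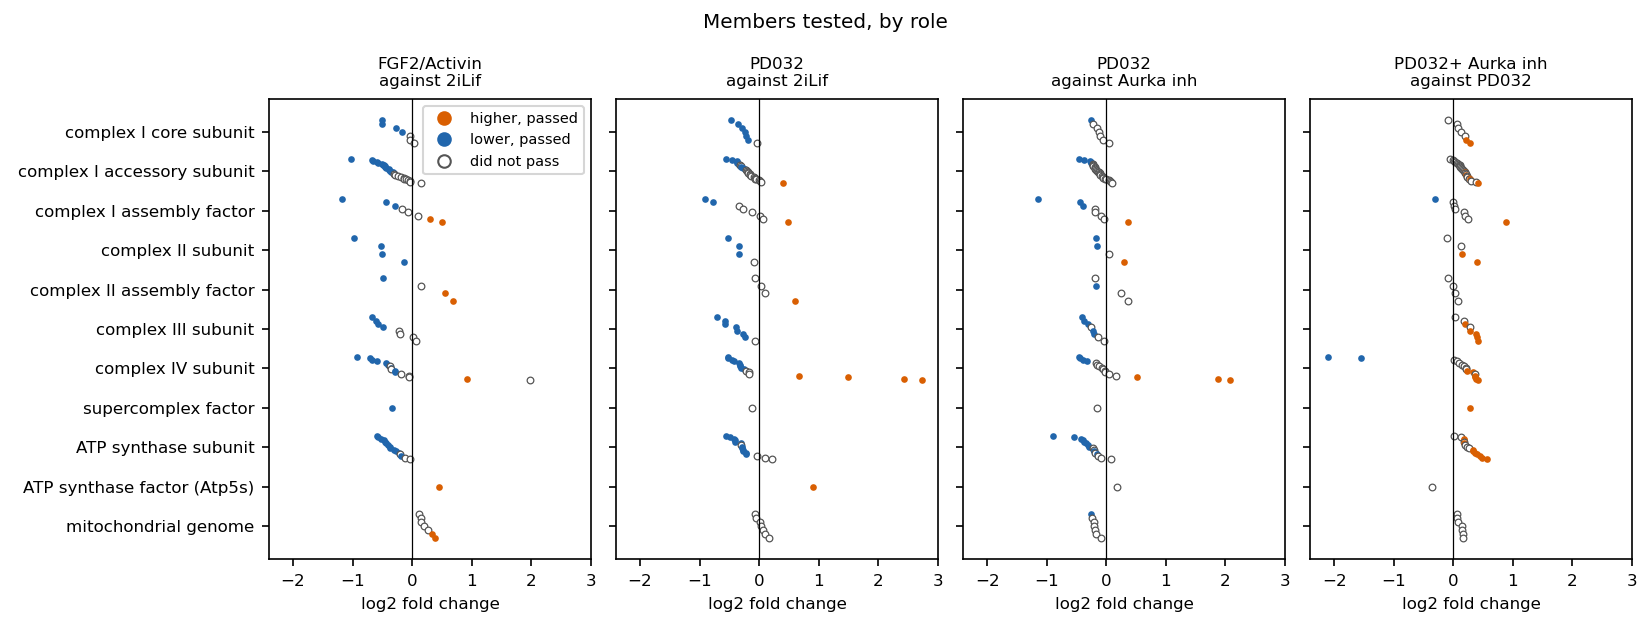
Log2 fold change (horizontal axis) of each tested member by role (rows) in 4 comparisons. Filled points passed (orange higher, blue lower) and open points did not. Nuclear subunits shift to the left in FGF2/Activin and PD032 against 2iLif and in PD032 against Aurka inh, and to the right in the combination against PD032, while the mitochondrial genome row lies above 0 in FGF2/Activin against 2iLif.

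The inhibitor groups were also compared with 2iLif, across the naming styles. PD032 against 2iLif gave 8 nuclear members higher, 50 lower (53.8%) and 35 not passed, where 32.1% of all genes were higher and 30.9% lower (63% in either direction), with a median of -0.25. Aurka inh against 2iLif gave 11 higher and 20 lower, where 28.9% and 29.5% of all genes were (58.4% in either direction), with a median of -0.08. The combination against 2iLif gave 7 higher and 12 lower, where 23.8% and 23.8% of all genes were (47.6% in either direction), with a median of -0.05. Without replicate 2 of the inhibitor groups, lower members numbered 73 in PD032, 51 in Aurka inh and 41 with both, where 35%, 33% and 28.4% of all genes were lower. Without single libraries, PD032 had 31 lower without its replicate 1, and Aurka inh had 13 without its replicate 1, 33 without its replicate 2 and 10 without 2iLif replicate 3. Shares of all genes lower in these fits were 28.1%, 28.2%, 29.2% and 25.6%, in this order.

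Several members were below 2iLif in every other medium. Ndufaf5 had 16.7, 19.9 and 18.3 CPM in PD032, 16.1, 21.5 and 18.8 CPM in Aurka inh and 19.2, 23.8 and 19.8 CPM in the combination, all under the lowest 2iLif library, with log2 fold changes of -0.91, -0.88 and -0.72. Uqcrc1, Uqcrc2, Ndufv1 and Sdhb were also lower than in 2iLif in each of the 4 other groups, in comparisons that share the 2iLif libraries. For Uqcrc1 the log2 fold change was -0.70 with PD032 alone, -0.33 with Aurka inh alone and -0.33 with both. Sdhaf3 went the other way in all 4, from 5.4 ± 0.0601 CPM in 2iLif to 8.2 ± 0.535 CPM with PD032 alone, 9.41 ± 1.18 CPM with Aurka inh alone and 7.75 ± 0.658 CPM with both (SD, n = 3).

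Mitochondrial members had 3 of 7 higher in Aurka inh than in 2iLif (mt-Nd1, mt-Nd2 and mt-Nd6, subunits of complex I), where 28.9% of all genes were. In the combination 1 was higher (mt-Nd6), where 23.8% of all genes were, and in PD032 none, where 32.1% were. For PD032 none passed at an unadjusted p under 0.05, in DESeq2 or in limma either. In Aurka inh none passed without its replicate 2. There were also none without 2iLif replicate 1, 1 without 2iLif replicate 2 and 6 without Aurka inh replicate 3. Shares of all genes higher in these fits were 26.3%, 25.8% and 25.8%, in this order. The call on mt-Nd6 in the combination was lost without its replicate 1 or 2 and without 2iLif replicate 1 or 2. mt-Nd6, the member transcribed from the opposite strand, overlaps mt-Nd5 by 14 bases, and the strand setting of the counting is not given in the sources used here.

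Some subunits of complex IV exist as alternative forms from separate genes. Cox6a2 is the heart and skeletal muscle form of subunit 6a, and Cox6a1 is the form of most other tissues. Cox6a2, at chr7:128205435-128206387, had 2.14, 2.23 and 2.21 CPM in 2iLif and 12.8, 17.9 and 13.2 CPM in PD032 (log2 fold change 2.73, SE 0.21, adjusted p = 9.9e-09). It had 4.32, 3.59 and 3.95 CPM in Aurka inh and 4.1, 5.54 and 5.37 CPM in the combination. PD032 stood above all other groups without overlap, also within the naming style: 1.88 on the log2 scale against Aurka inh (adjusted p = 5.0e-07) and -1.55 for the combination against PD032 (adjusted p = 2.8e-06). Per kilobase of exon, Cox6a1 remained the more abundant form, at 225 against 21.6 CPM per kb in PD032 and 264 against 3.23 in 2iLif.

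Cox6b2, known as the testis form of subunit 6b, was low in FGF2/Activin and high with the inhibitors. It had 38.9, 40.2 and 41 CPM in 2iLif and 21.1, 20.5 and 21.4 CPM in FGF2/Activin (log2 fold change -0.93, SE 0.08, adjusted p = 3.3e-08). PD032 had 65.8, 60.7 and 63.2 CPM, Aurka inh 53.6, 62.7 and 53.1 CPM and the combination 68.7, 78.8 and 67 CPM, all above every 2iLif library. Each of these 4 comparisons with 2iLif passed. The ubiquitous Cox6b1 instead had its highest mean in 2iLif, at 198 ± 14.1 CPM, with 137 ± 22.4 CPM in PD032 and 132 ± 0.858 in FGF2/Activin. In CPM per kb Cox6b1 exceeded Cox6b2 in 2iLif (280.3 against 36.1) and in PD032 (194 against 57.1).

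Ndufa4l2, a relative of Ndufa4 known to be induced by low oxygen, was lowest in 2iLif, at 4.16, 3.45 and 5.6 CPM. FGF2/Activin had 7.01, 9.51 and 8.5 CPM, PD032 13.7, 7.95 and 15.3 CPM, Aurka inh 14.4, 10.1 and 14 CPM and the combination 15.6, 7.73 and 14 CPM, so that no 2iLif library overlapped any other group. Replicate 2 was the lowest library in each inhibitor group, opposite to the nuclear sum. The 3 comparisons of inhibitor groups with 2iLif passed, with log2 fold changes from 1.49 in PD032 to 1.55 in Aurka inh. FGF2/Activin against 2iLif also passed (log2 fold change 0.92, SE 0.31, adjusted p = 0.015), but not in 3 of 13 alternatives (highest adjusted p = 0.073). Ndufa4 itself, now counted with complex IV, was lower in FGF2/Activin (-0.36) and lower in PD032 than in Aurka inh (-0.43).

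Cox7a1, the muscle form of subunit 7a, was low everywhere and lowest in Aurka inh, at 2.36, 2.96 and 1.98 CPM against 4.1, 4.91 and 4.29 CPM in the combination (log2 fold change 0.87, SE 0.17, adjusted p = 0.001) and 5.2, 4.13 and 4.88 CPM in 2iLif (log2 fold change -0.97, SE 0.18, adjusted p = 2.3e-04). PD032 had 3.52, 3.87 and 3.00 CPM, and its calls against 2iLif and Aurka inh were lost in 7 and 6 of 14 alternatives. Cox7a2, the ubiquitous form, was lower in PD032 than in Aurka inh, with 93.7, 118 and 100.4 against 126, 162 and 138 CPM (log2 fold change -0.45, SE 0.10, adjusted p = 0.0015). Cox7a2l had 70.3, 69.6 and 75.2 CPM in 2iLif and 55.8, 52.9 and 60.8 CPM in FGF2/Activin (log2 fold change -0.34, SE 0.09, adjusted p = 0.0028). Cox7b2 had its highest level in PD032, at 0.594, 1.07 and 0.257 CPM, but no library exceeded 1.07 CPM, and its calls were lost in 2 to 5 of 12 alternatives in the 3 comparisons with PD032. For the 3 genes of the c ring the log2 fold changes in FGF2/Activin against 2iLif were -0.28 for Atp5g1, -0.13 for Atp5g2, which did not pass, and -0.47 for Atp5g3.

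**Figure D5:**
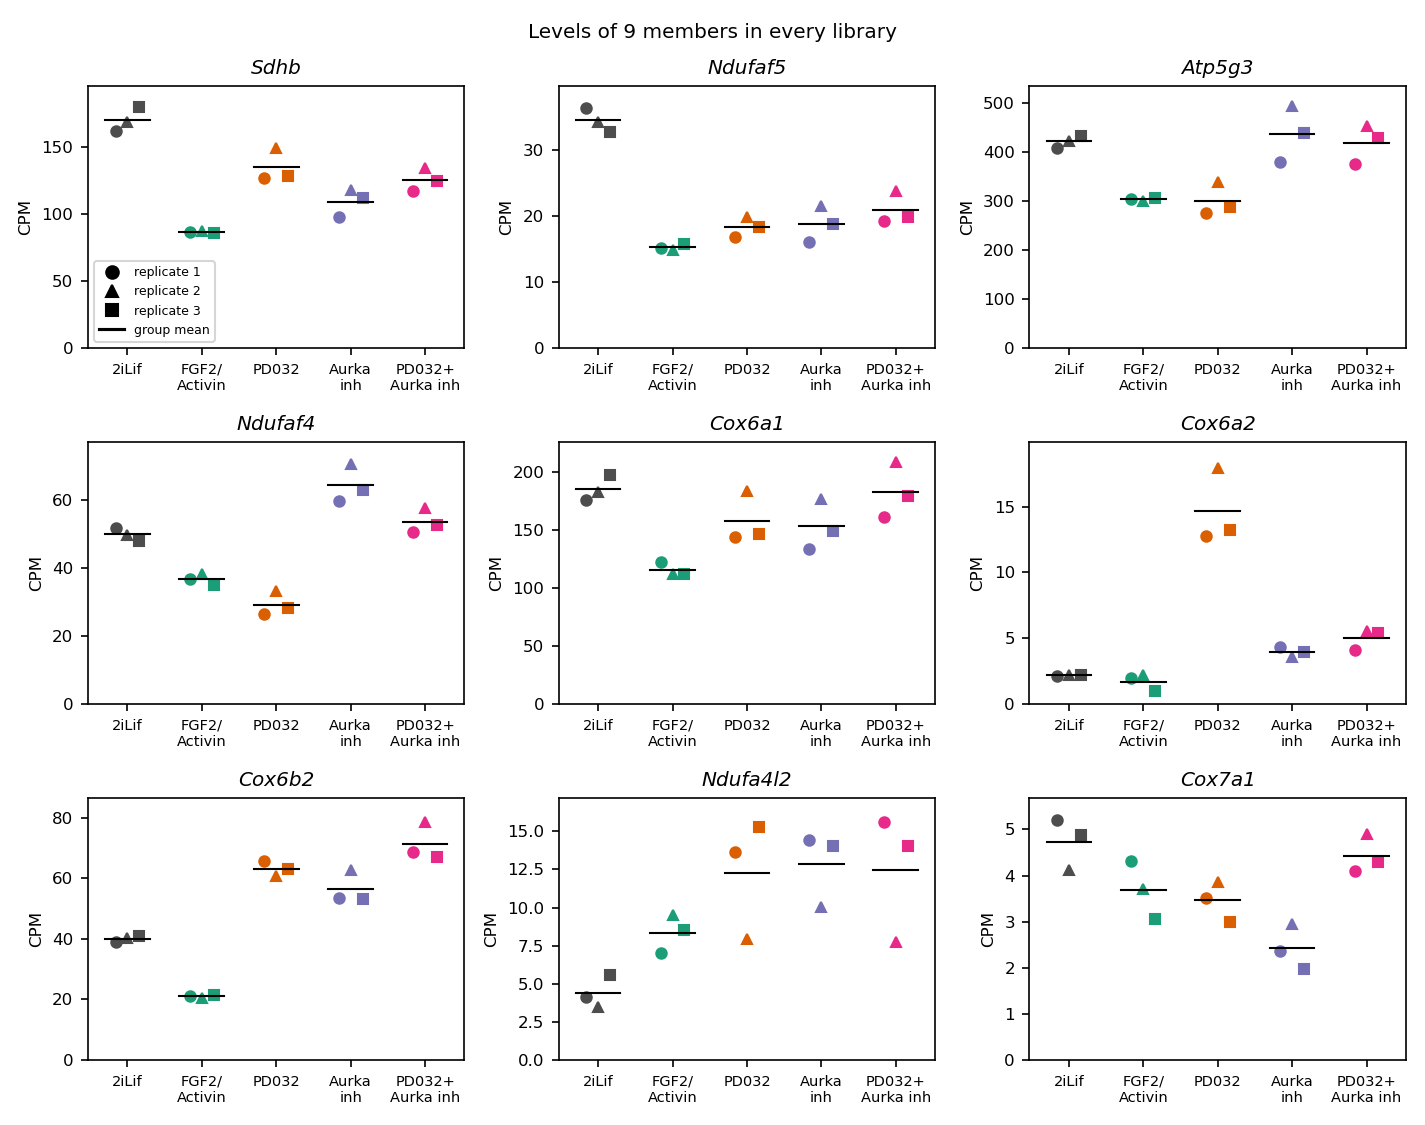
CPM of 9 nuclear members in every library (vertical axes from 0), by group, with marker shape for the replicate number and a line for the group mean. Cox6a2 stands at 12.8 to 17.9 CPM in PD032 and under 6 CPM elsewhere, Ndufaf4 is lowest in PD032, Ndufaf5 and Sdhb are highest in 2iLif, and Ndufa4l2 is lowest in 2iLif.

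Other genes of the system, from lists drawn up beside the members, were counted in the same fits. Shares of all tested genes were 33.3% higher and 32.6% lower in FGF2/Activin against 2iLif. They were 25.8% and 19.7% in PD032 against Aurka inh, and 20% and 23.8% in the combination against PD032. Genes that process and stabilise mitochondrial RNA had the same majority direction as the nuclear members between inhibitor groups: of 17 tested, 13 were lower and 0 higher in PD032 than in Aurka inh, and 12 higher and 0 lower in the combination than in PD032. In FGF2/Activin against 2iLif 8 were lower and 1 higher, and in the combination against Aurka inh 2 lower and 3 higher. Other lists had that majority too. In PD032 against Aurka inh citric acid cycle enzymes had 7 lower and 1 higher, electron carriers 7 and 2, and assembly factors of complexes III to V 7 and 2. In the combination against PD032 these had 6, 6 and 7 higher with 1, 1 and 2 lower. Regulators of respiratory gene transcription had 2 lower and 2 higher in PD032 than in Aurka inh. Genes that copy and transcribe mitochondrial DNA had 8 of 14 higher and 3 lower in FGF2/Activin than in 2iLif, with a median of 0.21, and 7 lower with 0 higher in PD032 than in Aurka inh. Of 16 genes for electron carriers and coenzyme Q 10 were lower and 2 higher in FGF2/Activin, with a median of -0.29.

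Citric acid cycle enzymes in FGF2/Activin against 2iLif had 4 of 16 higher, 7 lower and a median of 0.03, and they had 10 lower and 1 higher in PD032 against 2iLif. Assembly and copper delivery factors of complexes III to V had 3 higher and 7 lower of 25 in FGF2/Activin. Of 9 further assembly factors of complex I, 2 were higher and 1 lower there. Of 8 tested uncouplers and carriers of ADP, ATP and phosphate 4 were higher and 2 lower, and of 13 regulators of respiratory gene transcription 6 were higher and 5 lower. Beside these counts, 33.3% of all tested genes were higher and 32.6% lower in FGF2/Activin against 2iLif. In PD032 against 2iLif the shares were 32.1% and 30.9%. Both lists of assembly factors lay below the shares of all genes in FGF2/Activin. No list was tested against other genes.

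Promoters were read for motifs of the factors best known for respiratory genes, since many members moved together. RefSeq promoters of GRCm38.p6, 250 bases before to 50 after the start, were found for 80 of 97 nuclear members, and motifs were sought on both strands. The NRF1 motif, the palindrome in capitals in the Ndufaf4 and Atp5k lines below, was in 7 member promoters, 8.75%, against 1.47% of 17492 protein-coding genes. The ETS motif CCGGAAG, which GABPA binds, was in 26.3% against 12.9%, and the YY1 motif ATGGCGGC in 10% against 3.5%. The ERR motif TCAAGGTCA was in 2 members, 2.5%, against 0.377%, the CRE motif TGACGTCA in 5% against 2.54%, and the SP motif GGGCGG in 48.8% against 49.2%. A match is a description of letters, not of binding.

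The 150 bases before the start are printed for 3 motif holders, all lower in PD032 than in Aurka inh. Not every holder was: of the others with the NRF1 motif, Uqcrc1 was lower there without overlap, while Ndufaf5 overlapped. The NRF1 motif was also in Atp5g2, Ndufa11 and Cox6a1, whose values there are not given here. Sdhd, the other holder of the ERR motif, was lower there without overlap. The named holders are thus no tally of all holders. Whether a motif goes with the direction of change was not tested. The motif is in capitals: Ndufaf4 (chr4:24897933-24898082, plus strand) and Atp5k (chr5:108434400-108434549, minus strand) with the NRF1 motif, and Atp5g3 (chr2:73911327-73911476, minus strand) with the ERR motif, read here on the opposite strand.
Ndufaf4: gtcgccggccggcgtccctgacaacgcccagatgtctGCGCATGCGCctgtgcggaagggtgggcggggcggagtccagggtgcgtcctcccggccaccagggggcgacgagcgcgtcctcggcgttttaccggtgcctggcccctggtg
Atp5g3: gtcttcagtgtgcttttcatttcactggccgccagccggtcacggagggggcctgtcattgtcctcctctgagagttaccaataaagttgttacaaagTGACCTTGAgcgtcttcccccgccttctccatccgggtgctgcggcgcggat
Atp5k: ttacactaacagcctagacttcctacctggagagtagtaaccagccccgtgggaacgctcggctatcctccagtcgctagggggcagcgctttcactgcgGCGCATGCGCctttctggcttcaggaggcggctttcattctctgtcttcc
The motifs begin 113, 52 and 50 bases before the start in this order. Atp5k, a membrane subunit of the ATP synthase, had 59.4, 83.1 and 61.3 CPM in PD032 and 74.3, 107 and 87.2 CPM in Aurka inh (log2 fold change -0.40, SE 0.14, adjusted p = 0.027), and these groups overlapped. Ndufaf4 and Atp5g3 did not overlap there.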

How the data were processed

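Gene counts were deposited by the authors for 15 libraries of poly(A) RNA made with a directional kit, per the labels' protocols. Reads were aligned with STAR to mm10 and DESeq2 was used, per the submitters' processing notes. Not given in the sources used here are the counting tool, annotation, strand setting and handling of reads with several matches. A second table deposited by the authors holds normalized log2 values, 5.57 where the count is 0, and served only in an alternative.

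The counts were fitted with edgeR 4.0.16 in R 4.3.3: filterByExpr (15223 genes kept), TMM factors, 1 quasi-likelihood fit of all 15 libraries with a term per group, and Benjamini-Hochberg adjustment over all genes tested, with 0.05 as the threshold. The procedure was checked on simulated counts drawn without paired libraries and with few genes changed. That check cannot speak for the pairing or the many calls seen here. Log2 CPM in the check of replicate pairs used a prior count of 2, and fold changes the default of edgeR. Chromosomes and strands come from GENCODE M21, which matched 49326 of 49585 gene identifiers. Chi-square per degree of freedom between replicates of a group was 1.22 to 1.52 in FGF2/Activin and 1.31 to 6.38 in 2iLif. In the inhibitor groups it was 2.44 to 17.4. Values near 1 are what counting noise alone would give, and every library was counted as 1 sample. Alternatives were library-size scaling, scaling without the members, protein-coding totals, no filter, only the groups compared, DESeq2 1.42.0, limma 3.58.1 on the deposited log2 values, a replicate block, and leaving out each library.

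Replicate numbers in the labels were checked as pairs: among the 3 inhibitor groups, same-numbered libraries deviated together (r of 0.40 to 0.82, across genes), and between FGF2/Activin and 2iLif they did not (r of -0.09 to 0.05). Members, roles, gene lists and motifs were chosen with earlier results of these data known. Named genes are all mitochondrial members, the alternative isoforms with Sdha, and, per comparison and role, up to 3 passed members with the largest change in each direction whose libraries do not overlap. Ndufs1, Uqcrfs1 and Atp5e in FGF2/Activin, Ndufs5 and Atp5k were chosen after their values were seen.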

Additional observations from a re-analysis of the deposited data

Results flagged for a closer look

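Counts under the names of 4 annotated pseudogenes lay outside the comparisons above and well over the limit of 3 counts that a count of 0 allows. Gm28438, the chromosome 1 copy of mt-Nd3, had 3406 counts over the 15 libraries, 187 to 271 in each, while mt-Nd3 was listed at 0. BC002163, the copy of Ndufs5, had 5189 counts, 256 to 457 in each library, while Ndufs5 had 65 in all. Gm15920, a copy of the complex I accessory subunit Ndufa12 that matches it at 400 of 402 aligned bases, had 3860 counts, 169 to 349 in each library. Gm13340, the copy of mt-Co1 on chromosome 2, had 1215 counts, 116 to 193 in each 2iLif and FGF2/Activin library and 20 to 41 in each library of the inhibitor groups. From which locus these reads came was not tested.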

How the results depend on the processing

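No named gene that passed in a comparison changed direction there under the alternatives run. Of 195 passes by a named gene in a comparison, 130 held in every alternative, and of 239 that did not pass, 121 passed in at least 1. Counts of members moved by over 1.5 times as follows, with the cause not tested. With the replicate number as a block, fitted on the 9 libraries of the inhibitor groups, where the pairing was seen, the combination had 64 nuclear and 3 mitochondrial members higher than PD032, and 19 nuclear higher, 12 nuclear lower and 1 mitochondrial lower than Aurka inh. Of all genes 28% were higher there than in PD032, and 23.9% higher and 24.5% lower than in Aurka inh. In the same fit PD032 had 60 nuclear and 5 mitochondrial members lower than Aurka inh, where 27.2% of all genes were. Across groups whose numbers share no more than a number, the block gave 7 mitochondrial members higher in FGF2/Activin and 1 higher in PD032 than in 2iLif. Of all genes 38.3% and 32.9% were higher in these fits. With no filter on low counts, mitochondrial members higher than in 2iLif numbered 6 in FGF2/Activin, 6 in Aurka inh, 6 in the combination and 1 in PD032. This setting took in 29430 genes in place of 15223, of which 18.7%, 15.9%, 13.3% and 18.5% were higher, in this order. That setting also gave 4 higher in the combination than in PD032, 1 lower in the combination and 6 lower in PD032 than in Aurka inh, and 11 nuclear members higher in the combination than in Aurka inh and 11 than in 2iLif. Shares of all genes were 10.3%, 8.01%, 9.75%, 9.82% and 13.3%, in this order. With only the groups compared, 7 mitochondrial members were higher in FGF2/Activin and 1 in PD032 than in 2iLif, 1 nuclear member was lower in the combination than in Aurka inh, and 2 nuclear were higher and 0 mitochondrial lower in PD032 than in Aurka inh. Shares of all genes in these fits were 38.6%, 33.5%, 11.9%, 19.9% and 16.8%, in this order. DESeq2 gave 3 nuclear members higher in PD032 than in Aurka inh, where 11.9% of 29430 genes were. Scaling by library size gave 11 nuclear members higher in the combination than in 2iLif, where 25.7% of all genes were.

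Without replicate 2 of the 3 inhibitor groups, an alternative chosen after seeing the data, 55 nuclear and 1 mitochondrial member were higher in the combination than in PD032, 15 nuclear were higher and 5 lower than in Aurka inh, and 0 mitochondrial were lower in PD032 than in Aurka inh. Shares of all genes were 24.6%, 22%, 19.4% and 22.7%, in this order. Against 2iLif this alternative gave 51 nuclear lower in Aurka inh, 41 lower and 11 higher in the combination, and 1 mitochondrial higher in PD032. There the shares were 33%, 28.4%, 28.1% and 35%. Leaving out 1 library at a time gave 3 to 6 nuclear and 0 to 2 mitochondrial members higher in FGF2/Activin than in 2iLif, where 29.3% to 31% of all genes were. The combination had 17 to 52 nuclear higher than PD032, and 4 to 13 higher and 0 to 4 lower than Aurka inh. Shares of all genes were 15.7% to 21.1%, 14.1% to 18.4% and 11.7% to 16.7%, in this order. PD032 had 3 to 8 nuclear higher, 18 to 49 nuclear lower and 0 to 6 mitochondrial lower than Aurka inh, where 22.6% to 25.8% of all genes were higher and 15.8% to 20.4% lower. Against 2iLif, PD032 had 31 to 62 nuclear lower, Aurka inh 10 to 33 nuclear lower and 0 to 6 mitochondrial higher, and the combination 8 to 16 nuclear lower and 0 to 1 mitochondrial higher. Shares of all genes were 27.9% to 31.3%, 25.6% to 29.2%, 25.8% to 28%, 20.6% to 22.9% and 19.4% to 23.1%, in this order. At this depth Cox4i2, Cox8b and Cox8c had too few counts to be tested.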
